A study of Sus scrofa with 6 samples.

Results

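The spindle assembly checkpoint genes were taken as the 6 pig Ensembl genes with the symbols TTK, BUB1, BUB3, MAD1L1, MAD2L1 and BUB1B, out of 25880 genes counted per library. All 6 symbols matched 1 identifier each. The libraries were made from porcine (Sus scrofa) oocytes labelled MII, the metaphase at which a mature egg waits for sperm. Of the 6 libraries, 3 were controls and 3 came from oocytes matured in vitro with 1 mM malathion, an organophosphate insecticide. Per the labels' protocols, the cumulus-oocyte complexes were collected from slaughterhouse ovaries and malathion was added to the maturation medium from a stock in DMSO. Polyadenylated RNA was amplified by Smart-seq2, which copies whole transcripts and amplifies them by PCR. Whether the controls received DMSO, how many oocytes went into a library and whether replicates were separate cultures are not given in the sources used here, so the p-values below reflect the spread among these libraries, part or all of which may be technical.

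The checkpoint holds anaphase back until every chromosome is attached to spindle microtubules. At an unattached kinetochore, TTK (also called MPS1) phosphorylates the scaffold, BUB3 brings BUB1 and BUB1B to it, and MAD1L1 holds a template that converts MAD2L1 into the form that binds CDC20. MAD2L1, BUB1B and BUB3 then seal CDC20 in a complex that blocks the anaphase-promoting complex, so that cyclin B and securin are kept. In oocytes this control times the end of the first meiotic division. A mature egg waits at MII through another inhibitor of the same complex. The RNA measured here is thus polyadenylated mRNA present after the first division, and stored mRNA with little or no poly(A) may be undercounted.

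The libraries were unlike one another in ways that the treatment does not separate. Total gene counts ranged from 25816040 to 42312341. Control replicate 3 and malathion replicate 3 had a count for 8344 and 8492 genes, and the other 4 libraries for 12211 to 14707. Oocyte markers (11 of 11 with counts) summed to between 43538 and 118302 CPM (counts per 1000000 gene counts) in those 4 libraries, and to 6189 and 4892 CPM in control and malathion replicate 3. DNMT1 and BTG4 had the largest values in those 4 libraries. All markers of this list but ZP2 and MOS were lower in both replicate 3 libraries than in the other 4. ZP2 and MOS were lowest in control replicate 3, at 23.9 and 2.85 CPM, and highest in malathion replicate 3, at 2158 and 1458 CPM. Cumulus and granulosa markers (11 of 12 with counts, AMH at 0) summed to 38.1 to 666 CPM in the control and to 68.0 to 740 CPM in the malathion libraries. Theca, stroma, blood and endothelial markers summed to at most 14.8 CPM per list and library, with CYP17A1 and CDH5 at 0 throughout. Most of the cumulus and granulosa sum was VCAN (at most 424 CPM) and KITLG (at most 244 CPM), followed by CYP11A1 (at most 81.6 CPM), STAR (24.99 CPM) and INHBA (17.4 CPM), while HAS2, PTX3 and FSHR reached at most 2.16 CPM. The part of these differences in the results on the checkpoint genes was not tested. The levels of the members and of the other genes described are therefore given by library, and fold changes also without both replicate 3 libraries. In RNA from whole samples, fewer cells of a kind and less RNA per cell cannot be told apart.

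TTK (ENSSSCG00000004466), the kinase that starts the signal, varied least in CPM among the 5 members tested below. In the control libraries it stood at 50.6, 83.5 and 12.4 CPM, and with malathion at 52.3, 48.1 and 16.0 CPM (replicates 1, 2 and 3 in that order, as in the values that follow). The groups overlapped, and both replicate 3 libraries were the lowest. The mean was 48.8 ± 35.6 CPM in control and 38.8 ± 19.8 CPM in malathion libraries (SD, n = 3 each), and the highest library exceeded the lowest 6.76-fold.

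BUB1 (ENSSSCG00000030469), the kinase that docks on the kinetochore scaffold and prepares it for MAD1L1, stood at 153, 23.1 and 3.05 CPM in the control libraries. With malathion it stood at 132, 155 and 2.95 CPM. Control replicate 2 lay well under control replicate 1 and malathion replicates 1 and 2. Control and malathion replicate 3 held 90 and 125 counts in all and were the lowest in CPM. In TMM-normalised CPM these 2 libraries stood at 21.7 and 21.4, above control replicate 2 at 6.46. The group means were 59.6 ± 81.2 and 96.8 ± 82.0 CPM (SD, n = 3 each), so the spread within a group was larger than the distance between the means.

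BUB3 (ENSSSCG00000010726), the adaptor that carries BUB1 and BUB1B to the kinetochore, stood at 863, 1455 and 11698 CPM in the control libraries. With malathion it stood at 1015, 1418 and 35323 CPM. It was the only member at its highest in both replicate 3 libraries. There it ranked 12th of all genes in control replicate 3 and 3rd in malathion replicate 3, against ranks 81 to 167 in the other 4 libraries. Among the 10678 genes tested, 1.79% were higher in both replicate 3 libraries than in the other 4, and 83.8% were lower. With TMM-normalised CPM, BUB3 and TTK were higher in both replicate 3 libraries than in the other 4, as 18.1% of genes were, and BUB1B was lower, as 46.8% were. The means of BUB3 were 4672 ± 6092 CPM in control and 12585 ± 19692 CPM in malathion libraries (SD, n = 3 each). Without both replicate 3 libraries, BUB3 ranged from 863 to 1455 CPM, and the control values enclosed those of malathion.

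MAD1L1 (ENSSSCG00000038766), which holds MAD2L1 at the kinetochore, was barely detected. The control libraries held 4, 68 and 0 counts of it, and the malathion libraries 0, 2 and 0. Control replicate 2, at 2.51 CPM (Wilson 95% interval 1.98 to 3.18), therefore held nearly all of its reads. A count of 0 allows up to 0.102 CPM in control replicate 3, 0.116 CPM in malathion replicate 1 and 0.0709 CPM in malathion replicate 3, taking 3 counts as the limit. MAD1L1 did not pass the filter on low counts and was not tested, so the test covers 5 of the 6 members. Without that filter its log2 fold change was −4.20 ± 2.65 (SE, edgeR adjusted p = 0.781), the only one of the 6 below 0 there, a value that rests on 2 counts in the malathion libraries and on the prior count.

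MAD2L1 (ENSSSCG00000036256), the protein that MAD1L1 converts and that captures CDC20, stood at 587, 239 and 16.1 CPM in the control libraries. With malathion it stood at 678, 579 and 41.4 CPM. In CPM, malathion replicates 1 and 2 lay close to control replicate 1, with control replicate 2 under them and the replicate 3 libraries far under. With TMM-normalised CPM, control and malathion replicate 3 stood at 115 and 299, above control replicate 2 at 66.8. The means were 280 ± 288 and 433 ± 343 CPM (SD, n = 3 each).

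BUB1B (ENSSSCG00000004782), which encodes BUBR1, the subunit that presents itself to the anaphase-promoting complex as a false substrate, stood at 609, 195 and 6.68 CPM in the control libraries. With malathion it stood at 698, 615 and 7.42 CPM. In CPM, BUB1B shared with BUB1 and MAD2L1 a lower control replicate 2 and the lowest values in both replicate 3 libraries. Its range in CPM was the widest of the 5 tested members, at 104-fold. With TMM-normalised CPM, BUB3 had the widest range, from 362 to 255505. The fold range of MAD2L1 (66.8 to 300) was then narrower than that of TTK (18.0 to 116). The means of BUB1B were 270 ± 308 and 440 ± 377 CPM (SD, n = 3 each). Counting error was small beside these gaps. The Wilson 95% interval of BUB1B, for example, was 600 to 618 CPM in control replicate 1 and 5.81 to 7.69 CPM in control replicate 3, an interval for counting error alone, in which PCR copies pass for separate molecules.

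**Figure D1:**
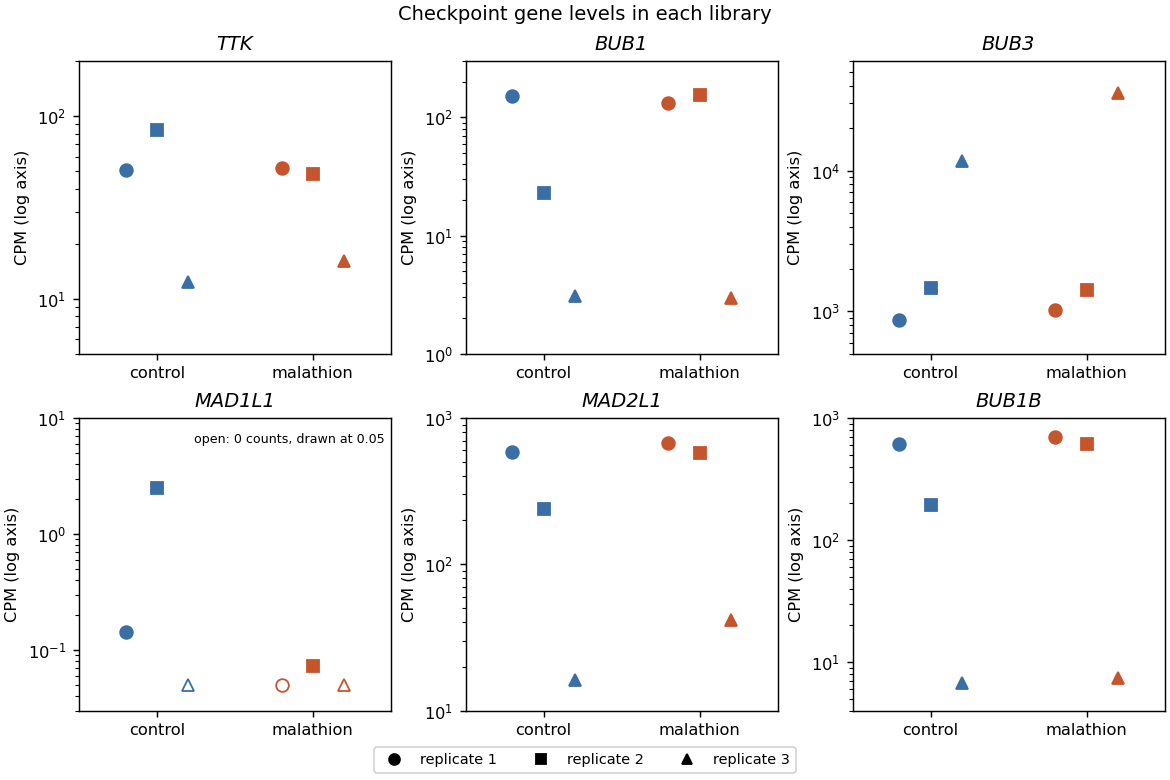
Level of each checkpoint gene in CPM (log axis, a separate scale per panel) in the 3 control (blue) and 3 malathion (orange) libraries, with 1 point per library and the replicate number as its shape. TTK, BUB1, MAD2L1 and BUB1B are lowest in both replicate 3 libraries, BUB3 is highest there at 11698 and 35323 CPM, and the groups overlap in each panel.

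The proportions of the members to one another do not depend on how libraries are scaled, so they were also compared as counts per count of BUB1B. Transcript lengths were not used, so only the change of a proportion between libraries is read, not which gene is higher. BUB3 had 1.42 counts per BUB1B count in control replicate 1 and 1.45 in malathion replicate 1, then 2.31 in malathion replicate 2 and 7.46 in control replicate 2. In control and malathion replicate 3 the proportion was 1750 and 4760 counts per BUB1B count. MAD2L1 stayed between 0.943 and 0.971 counts per BUB1B count in control replicate 1 and malathion replicates 1 and 2. It stood at 1.22 in control replicate 2, and at 2.41 and 5.57 in control and malathion replicate 3. TTK had 0.0832, 0.0748 and 0.0783 counts per BUB1B count in these same libraries, against 0.429 in control replicate 2 and 1.85 and 2.16 in control and malathion replicate 3. BUB1 moved least, from 0.118 counts per BUB1B count in control replicate 2 to 0.457 in control replicate 3. The proportions were thus closest among malathion replicates 1 and 2 and control replicate 1, where BUB3 still ranged from 1.42 to 2.31 counts per BUB1B count.

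**Figure D2:**
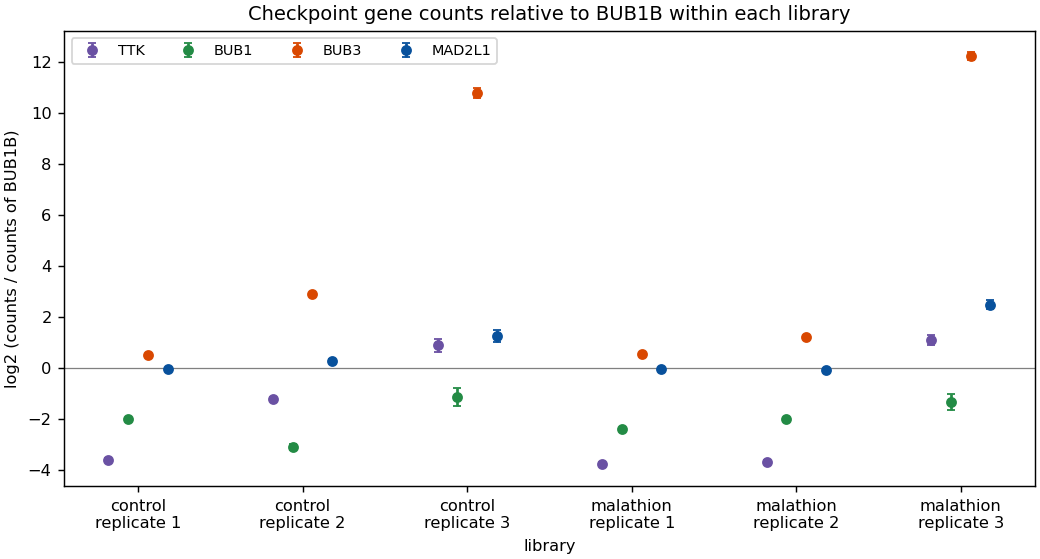
Log2 of the counts of TTK, BUB1, BUB3 and MAD2L1 divided by those of BUB1B in the same library, for each of the 6 libraries, with bars for the 95% interval from counting error alone. The 4 proportions are closest to each other in malathion replicates 1 and 2 and control replicate 1, while BUB3 reaches 10.77 and 12.22 in control and malathion replicate 3.

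Summed over the 6 members, the checkpoint transcripts made up 0.226%, 0.200% and 1.17% of gene counts in the control libraries. With malathion they made up 0.257%, 0.282% and 3.54%. BUB3 supplied 38.2%, 72.8% and 99.7% of that sum in the control libraries. With malathion it supplied 39.4%, 50.4% and 99.8%. Without BUB3 the control sums were 1399, 543 and 38.2 CPM, and those with malathion 1560, 1397 and 67.7 CPM. The high sum of the replicate 3 libraries was therefore BUB3 almost alone.

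The question put to the 3 against 3 libraries was whether malathion changes the polyadenylated mRNA of these oocytes. None of the 5 tested members passed edgeR's quasi-likelihood test (adjusted p = 0.9998 for each, and 0.444 for MAD2L1 to 0.820 for TTK unadjusted). Over all 10678 genes 0 passed, a background of 0.00%, and 383 genes, or 3.59%, had an unadjusted p under 0.05, with 0 members among them. DESeq2 also called 0 members and 0 genes, with 227 at an unadjusted p under 0.05, and it gave no p for BUB3. The values of control and malathion libraries overlapped for each of the 6 members, and for all but 0.749% of the genes tested (2.83% with TMM-normalised CPM, again with 0 members). The log2 fold changes, malathion minus control after scaling by trimmed mean of M-values (TMM), were 0.25 ± 1.06 for TTK, 0.58 ± 1.02 for BUB1, 1.61 ± 4.93 for BUB3, 0.93 ± 1.19 for MAD2L1 and 0.73 ± 1.22 for BUB1B (SE). All 5 values of tested members were above 0 (MAD1L1, fitted only without the filter, was below), where 46.6% of the genes tested were, and their median was 0.73 against −0.08 for all genes tested. With library totals alone, TTK turned to −0.33, so that 4 of 5 were above 0, where 33.7% of genes were.

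The intervals of these fold changes, from a fit without a term for the replicate number, were wide. The 95% interval ran from −2.02 to 2.51 for TTK, from −1.61 to 2.77 for BUB1, from −1.61 to 3.47 for MAD2L1 and from −1.87 to 3.34 for BUB1B. For BUB3 it ran from −8.93 to 12.16. The value of BUB3 swung with either replicate 3 library left out alone. It was −5.80 ± 5.36 without malathion replicate 3 and 7.80 ± 6.93 without control replicate 3 (SE). Where both were left out, or the replicate number was a block, it was 0.35 and 0.77, above 0 as in the main fit. TTK turned to −1.07 without malathion replicate 3, to −0.06 without control replicate 2 and to −0.09 without control replicate 1.

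Without both replicate 3 libraries, an alternative chosen with the data known, BUB3 stood at 0.35 ± 0.48, MAD2L1 at 0.72 ± 0.70, BUB1B at 0.80 ± 0.76, BUB1 at 0.72 ± 0.95 and TTK at −0.11 ± 0.44 (log2 fold change ± SE). None passed there (adjusted p from 0.991 to 0.993). With control replicate 2 left out as well, the single control library being taken to vary like the malathion ones, BUB1 stood at −0.14, MAD2L1 at 0.07, BUB1B at 0.08, TTK at −0.05 and BUB3 at 0.43. The values of BUB1, MAD2L1 and BUB1B above 0.7 without the replicate 3 libraries thus rested on control replicate 2.

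**Figure D3:**
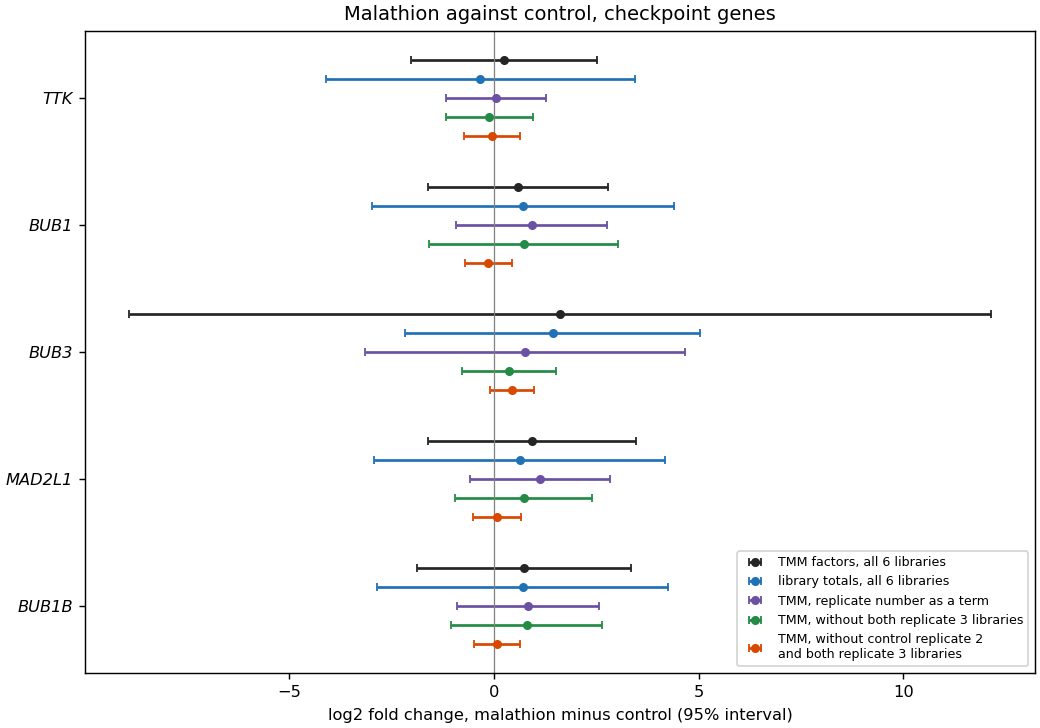
Log2 fold change of the 5 tested members, malathion minus control, with 95% intervals (bars), under 5 settings of scaling, replicate term and libraries. Every interval includes 0, that of BUB3 runs from −8.93 to 12.16 with TMM factors and all 6 libraries, and the intervals are narrowest, around values from −0.14 to 0.43, without control replicate 2 and both replicate 3 libraries.

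Malathion and control libraries were also set side by side by replicate number. Between malathion and control replicate 1, log2(CPM + 1) differed by 0.04 for TTK, −0.20 for BUB1, 0.23 for BUB3, 0.21 for MAD2L1 and 0.20 for BUB1B. Each lay inside the range from −0.71 to 0.48 that held the middle 90% of the 5331 tested genes at a mean of 10 CPM or more. Between replicates 2 the differences were 2.70 for BUB1, 1.65 for BUB1B, 1.28 for MAD2L1, −0.04 for BUB3 and −0.78 for TTK, against a range of genes from −2.56 to 1.52. BUB1 and BUB1B were outside it. Control replicate 2 was under control replicate 1 and malathion replicates 1 and 2 for these 2 genes and MAD2L1, as it was for 24.6% of genes, and above them for TTK and BUB3, as for 58.0%. Oocyte markers summed to 43538 CPM in control replicate 2 against 86335 to 118302 CPM in these 3 libraries, and cumulus and granulosa markers to 430 CPM against 666 to 740 CPM. The oocyte list was split. GDF9 stood at 2650 CPM in control replicate 2 against 377 to 404 CPM, and ZP3 at 998 against 348 to 417 CPM. ZAR1 was also higher there, MOS lay within the range of the 3 libraries, and the other oocyte markers were lower. The part of either marker sum in the low BUB1, BUB1B and MAD2L1 of control replicate 2 was not tested. Between replicates 3 the differences were 1.59 for BUB3, 1.31 for MAD2L1, 0.35 for TTK, 0.13 for BUB1B and −0.04 for BUB1, all inside a range from −4.49 to 2.38. Each of these differences compares 1 library with 1 library and has no replicate check.

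**Figure D4:**
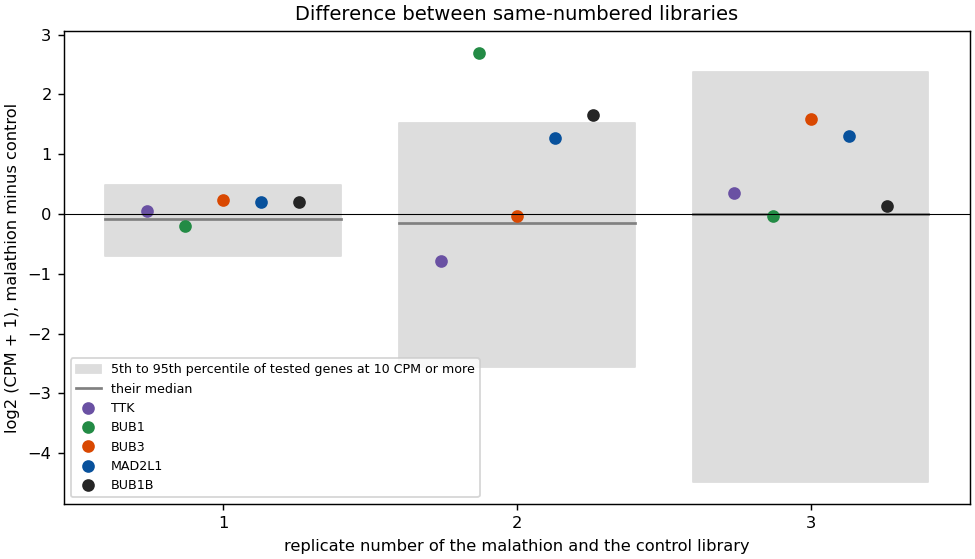
Difference in log2(CPM + 1), malathion minus control, between the libraries of each replicate number for the 5 tested members (points), with the 5th to 95th percentile (grey) and median (grey line) of 5331 tested genes at 10 CPM or more. The members lie between −0.20 and 0.23 in replicates 1, and BUB1 at 2.70 and BUB1B at 1.65 lie above the grey range in replicates 2.

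The members did not share 1 pattern over the 6 libraries. After each profile of log2(CPM + 1) was set to a mean of 0, BUB1 differed on average by 0.58 from MAD2L1 and by 0.60 from BUB1B, and MAD2L1 by 0.76 from BUB1B. BUB3 differed by 2.70 to 4.45 from the other 4 tested members. By the same measure, the other gene most like TTK was PPAT (ENSSSCG00000008902), an enzyme of purine synthesis, at a mean difference of 0.04. The most like MAD2L1 was PARP14 (ENSSSCG00000011874), an ADP-ribosyltransferase, at 0.10, and the most like BUB1B was TCTN2 (ENSSSCG00000009768), a protein of the ciliary transition zone, at 0.12. BUB1 was nearest to FASTKD2 (ENSSSCG00000016134), a mitochondrial RNA-binding protein, at 0.21. BUB3 was nearest to GFPT1 (ENSSSCG00000008339), the entry enzyme of hexosamine synthesis, at 0.22. GFPT1 stood at 239, 242 and 2161 CPM in the control libraries and at 215, 267 and 5224 CPM with malathion. Profiles within 0.25 of TTK, MAD2L1 and BUB1B were held by 64, 38 and 42 of the 4715 genes searched, of BUB1 by 6 and of BUB3 by 2, GFPT1 being 1 of them. For MAD1L1 the rule gave VGLL3, at 0.09, but that profile is control replicate 2 against libraries near 0. With TMM-normalised CPM, PPAT, PARP14 and GFPT1 stayed the nearest, BUB1 was nearest to C11orf54, BUB1B to NEIL1 and MAD1L1 to NUP153.

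The genes around the checkpoint were followed in 6 lists with 65 symbols, of which 57 were matched to the files and 53 tested. None passed the test over all genes, and none had an unadjusted p under 0.05. Their groups overlapped in all 53. In the TMM-scaled fit 32 were above 0 and 21 below, or 60.4% above 0 against 46.6% of all genes tested. With library totals alone 29 of the 53 were above 0, where 33.7% of all genes tested were. The median log2 fold change of all genes tested was −0.08 in the TMM-scaled fit. It was −0.33 with library totals and −0.06 without both replicate 3 libraries, and the list medians below are to be read beside these. Both replicate 3 libraries were the lowest for 45 of the 53, as for 83.8% of all genes tested, when measured in CPM. With TMM-normalised CPM, which the fold changes use, these libraries were the lowest for 25 of the 53 and the highest for 12, against 46.8% and 18.1% of all genes tested. Of the 8 genes outside the 45, the centromeric histone gene CENPA alone was higher in CPM in both replicate 3 libraries than in the other 4, as BUB3 was, at 400 and 545 CPM in control and malathion replicate 3 against 22.7 to 41.2 CPM in the other 4 libraries. CENPA is named for this value, after it was seen.

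The kinetochore scaffold, on which BUB1, BUB3 and BUB1B gather, had 4 of 8 tested genes above 0 and 4 below, with a median log2 fold change of 0.05. The median was −0.31 with library totals (3 above 0) and −0.10 without both replicate 3 libraries. SPC24, a subunit of the microtubule-binding NDC80 complex, had −2.66 ± 1.49 (SE), with 476 CPM in control replicate 2 and at most 50.0 CPM elsewhere. Its value was 0.48 without that library and −2.68 without both replicate 3 libraries. NDC80 itself had 3.76 ± 3.52, with 6799 CPM in malathion replicate 3 and 203 to 629 CPM elsewhere. It stood at −2.29 without malathion replicate 3, at 6.74 without control replicate 3 and at 0.66 without both.

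Among the RZZ complex, Spindly and the proteins that remodel MAD2L1, 3 of 6 were above 0 and 3 below. The median was −0.12, −0.15 with library totals (1 above 0) and 0.11 without both replicate 3 libraries. MAD2L1BP, which helps to take closed MAD2L1 apart, stood at 15.01, 112 and 10.04 CPM in the control libraries and at 10.7, 22.9 and 2.17 CPM with malathion. Its log2 fold change was −1.91 ± 1.06 (SE), −0.95 without control replicate 3 and −1.48 without both replicate 3 libraries. KNTC1, a subunit of the RZZ complex, stood at 18.7, 18.9 and 8.41 CPM in the control libraries and at 19.0, 20.2 and 2.15 CPM with malathion. Its value of −1.21 ± 1.08 turned to 0.68 without control replicate 3 and to 0.29 without both replicate 3 libraries.

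Centromere and corona genes had 8 of 11 above 0 and 3 below. The median was 0.47, 0.33 with library totals (9 above 0) and 0.47 without both replicate 3 libraries. CENPI, a centromere subunit, stood at 169, 90.5 and 1.22 CPM in the control libraries and at 179, 178 and 9.50 CPM with malathion. Its log2 fold change of 1.03 ± 1.01 (SE) ranged from 0.58 without control replicate 3 to 2.08 without control replicate 1, and was 0.60 without both replicate 3 libraries and 0.49 with library totals. CLASP1, a regulator of microtubule ends, had −2.11 ± 1.60, with 26.2 CPM in control replicate 2 and at most 2.81 CPM elsewhere. It stood at −0.03 without that library and at −1.98 without both replicate 3 libraries.

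The kinases and phosphatases of error correction had 7 of 10 above 0 and 3 below. The median was 0.27, −0.01 with library totals (5 above 0) and 0.18 without both replicate 3 libraries. PPP1CC, a phosphatase that silences the checkpoint, stood at 178, 212 and 165 CPM in the control libraries and at 138, 190 and 465 CPM with malathion. Its log2 fold change of 1.42 ± 2.02 (SE) was −2.69 without malathion replicate 3, 4.12 without control replicate 3 and −0.02 without both. BIRC5, or survivin, stood at 82.3, 289 and 0.679 CPM in the control libraries and at 86.1, 85.3 and 0.355 CPM with malathion. Its value of −0.73 ± 1.16 turned to 0.29 without control replicate 2, and was −1.23 without control replicate 3 and −0.71 without both replicate 3 libraries.

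The anaphase-promoting complex, its activators and its E2 enzymes had 9 of 15 above 0 and 6 below. The median was 0.34, 0.07 with library totals (9 above 0) and 0.38 without both replicate 3 libraries. CDC20, the activator that MAD2L1 and BUB1B capture, had 0 counts in each of the 6 libraries (ENSSSCG00000003949) and was not tested. That allows at most 0.116 CPM in any of them, provided that reads of CDC20 could be assigned to this identifier. Whether they could was not examined, so the 0 counts do not show that its mRNA was absent. FZR1, the other activator, stood at 2.20, 14.1 and 1.09 CPM in the control libraries and at 0, 2.12 and 0 CPM with malathion. Its log2 fold change of −3.80 ± 1.84 (SE) was −2.59 without both replicate 3 libraries. Without malathion replicate 2 it was −10.58, a value fitted to malathion libraries at 0 counts, which depends on the prior count. ANAPC4, a scaffold subunit of the complex, stood at 7.70, 4.50 and 0.0339 CPM in the control libraries, the last of these being 1 count, and at 7.82, 9.15 and 2.91 CPM with malathion. Its value of 2.502 ± 1.32 was 0.70 with library totals and 0.62 without both replicate 3 libraries, and ranged from 1.08 without malathion replicate 3 to 3.52 without control replicate 1.

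Of the B cyclins and separase, which act at the end of this pathway, 1 of 3 was above 0 and 2 were below. The median of −0.10 turned to 0.07 with library totals (2 above 0) and to 0.16 without both replicate 3 libraries. ESPL1, or separase, stood at 118, 32.5 and 0.0679 CPM in the control libraries and at 95.1, 62.0 and 0.874 CPM with malathion. Its log2 fold change of 0.28 ± 1.24 (SE) ranged from −0.41 without malathion replicate 1 to 2.31 without control replicate 1, and was 0.16 without both replicate 3 libraries. CCNB2, a B cyclin, stood at 162, 407 and 2.34 CPM in the control libraries and at 161, 239 and 1.87 CPM with malathion. Its value of −0.19 ± 1.07 turned to 0.46 without control replicate 2, and was −0.63 without malathion replicate 2 and −0.17 without both replicate 3 libraries.

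**Figure D5:**
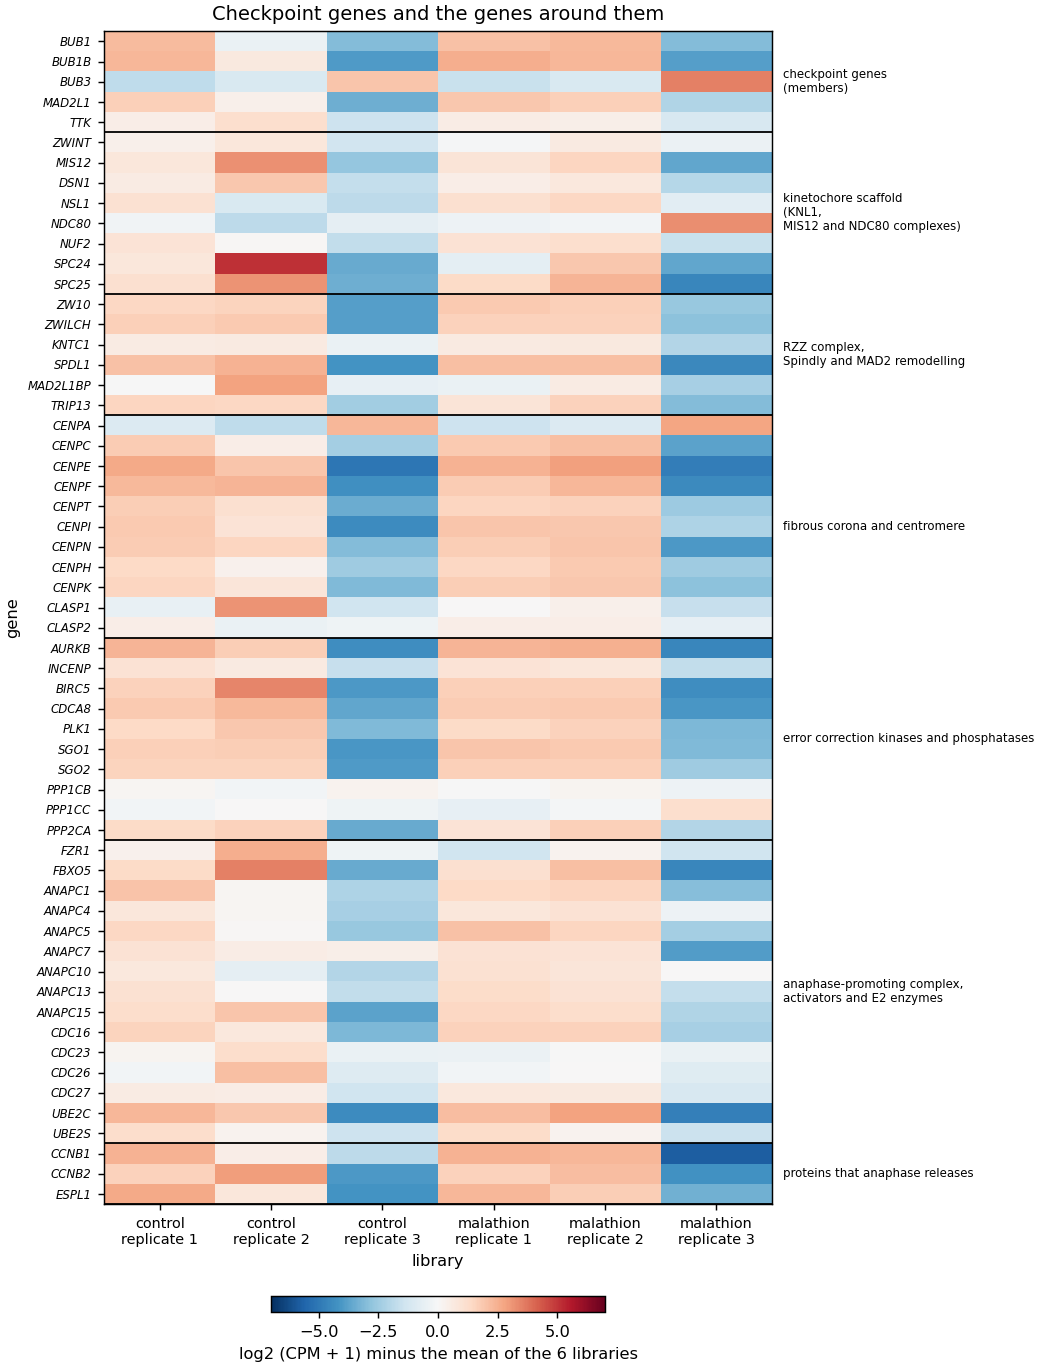
Log2(CPM + 1) minus the mean over the 6 libraries for the 5 tested checkpoint genes and 53 genes around them (rows, by list) in each library (columns), from blue (lower) to red (higher). The replicate 3 columns hold the lowest values for 45 of the 53 genes and for 4 of the 5 members, while BUB3 and CENPA are red there.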

How the data were processed

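The tools named in the submitters' processing notes are STAR (2.5.3a), HTSeq (0.9.1) and DESeq2 (1.20.0). Their roles, the genome build, annotation and strand setting are not given in the sources used here, so no coordinates are printed. The deposited files hold raw read counts for 25880 genes and 5 rows of reads given to no gene (36.7% to 42.6% of reads), which stayed out of totals and tests. A name table gave symbols to 14857 identifiers. Reads from near-identical copies, overlapping or antisense genes may be lost or shared. CPM are counts per 1000000 gene counts.

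The groups were tested in edgeR 4.0.16 under R 4.3.3, by the two-sided quasi-likelihood test with TMM factors, filterByExpr (minimum count 10, total 15) and Benjamini-Hochberg adjustment over 10678 genes, threshold 0.05. The script was also run on simulated counts, drawn from a shared mean profile without pairing and without the difference of the replicate 3 libraries. That run does not cover these features of the data. DESeq2 1.42.0 was an alternative. TMM factors were 0.141 and 0.138 in control and malathion replicate 3 and 2.25 to 3.57 elsewhere. The CPM printed do not contain them, so fold changes do not follow from those CPM.

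Same-numbered libraries deviated together from their group means (across genes, log2 CPM with a prior count of 2, r = 0.466, 0.467 and 0.573 for numbers 1, 2 and 3). The replicate number was fitted as a block, which pairs them, only as an alternative. The main fit, with its p-values, SEs and intervals, leaves this pairing out. Control replicate 1 correlated nearly as well with malathion replicate 2 (r = 0.457), and control replicate 2 with malathion replicate 1 (r = 0.375). Replicate 3 libraries correlated negatively with the others of the opposite group (−0.553 to −0.459). Deviations from a group mean cancel out within the group, so these negative values follow from the positive ones. By the positive values, the pairing mainly parts replicate 3 from 1 and 2. What a number marks is not given in the labels. The members and lists were chosen with earlier results of these data known. Named genes were the 6 members, the 2 genes of each other list with the smallest p, and the gene most like each member (mean of at least 10 CPM). The list symbols KNL1, PMF1, AURKA, AURKC, ANAPC11, ANAPC16, CCNA2 and PTTG1 were not analysed here, and CDC20, ANAPC2, HASPIN and PPP1CA were not tested.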

Additional observations from a re-analysis of the deposited data

How the results depend on the processing

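No member passed the test under any of the 13 alternatives tried, and 57 of the 65 log2 fold changes of the 5 tested members kept their direction. MAD1L1 could be fitted only without the filter on low counts, and DESeq2 gave no p for BUB3, which therefore could not pass there. The 8 that reversed were those of TTK with library totals alone (−0.33), without control replicate 1 (−0.09), without control replicate 2 (−0.06), without malathion replicate 3 (−1.07), without both replicate 3 libraries (−0.11) and without these and control replicate 2 (−0.049), that of BUB1 in the last setting (−0.14) and that of BUB3 without malathion replicate 3 (−5.80). With the replicate number as a block, no call changed and 0 genes were called. The log2 fold changes were then 0.05 ± 0.53 for TTK, 0.92 ± 0.81 for BUB1, 0.77 ± 1.71 for BUB3, 1.13 ± 0.75 for MAD2L1 and 0.83 ± 0.76 for BUB1B (SE). Each SE was smaller than in the main fit. Leaving out 1 library at a time gave −1.07 to 1.23 for TTK, 0.10 to 1.72 for BUB1, −5.80 to 7.80 for BUB3, 0.59 to 1.59 for MAD2L1 and 0.26 to 1.97 for BUB1B. Members above 0 numbered 5 in the main comparison, 3 to 5 when 1 library was left out (3 without malathion replicate 3), and 3 without control replicate 2 and both replicate 3 libraries. Over all genes, 60 were called without the filter on low counts and 0 to 3 when 1 library was left out, 3 without malathion replicate 1 and 3 without malathion replicate 2, with no member among them. Values of MAD1L1 rest on few counts, with 3 counts taken as the limit for an undetected gene, and the reason for its low counts was not tested.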
